A study of Mus musculus with 14 samples.

Results

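The FASTK family is a group of nuclear genes for mitochondrial RNA-binding proteins, and its 6 genes are Fastk, Fastkd1, Fastkd2, Fastkd3, Fastkd5 and Tbrg4, the last of which is also known as Fastkd4. They were taken by gene symbol from the 24394 named genes of the table, and all 6 were among the 11646 genes that passed the filter of a mean of at least 10 normalized counts. The family was picked from the same contrast described here, because Fastkd5 was among the strongest rises, so the group difference of Fastkd5 is given as a description with no test. The study sequenced the RNA of microglia, the macrophages that live in brain tissue, taken from C57BL/6 mice at 18 months of age. Both groups carried an osmotic pump that infused antibody into the cerebrospinal fluid for 1 month: a control IgG for one group, and a CD22-blocking antibody for the other. CD22 is an inhibitory receptor of the sialic acid-binding Siglec family. There were 7 libraries per group, each from about 20000 live cells sorted as positive for CD11b and low for CD45 from the hemisphere opposite the cannula. Whether every library had its own animal is not stated in the labels, so p-values describe only how far these samples spread, which may be technical. In sorted bulk RNA, fewer cells of a type and less RNA per cell cannot be told apart.

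As background, the mitochondrial genome is transcribed into long RNAs in which the messenger RNAs mostly lie between transfer RNAs, and cutting out the transfer RNAs frees them. A few messenger RNAs have no transfer RNA at one end and are cut by other means. FASTK family proteins carry a C-terminal RAP domain, work in or near the mitochondrial RNA granules where new transcripts are processed and ribosomes assembled, and each affects a different subset of mitochondrial transcripts. The table held 0 entries for genes encoded in the mitochondrial genome, so those transcripts were not analysed here.

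The start regions of Fastkd5 and Fastkd3 are printed because each lies beside the start of another gene. The first of these pairs bears on how the Fastkd5 values can be read. Fastkd2 also starts near another gene, Mdh1b, with their GENCODE starts 296 bases apart on opposite strands, but its window is not printed. Each printed region is a RefSeq window (GRCm38.p6, the mm10 assembly) of 250 bases before and 50 bases after the annotated start. It is written 5′ to 3′ on the gene's own strand. Capitals mark matches to any of 6 motifs. The Fastkd5 window is chr2:130629953-130630252 on the minus strand, and the Fastkd3 window is chr13:68581960-68582259 on the plus strand.
Fastkd5: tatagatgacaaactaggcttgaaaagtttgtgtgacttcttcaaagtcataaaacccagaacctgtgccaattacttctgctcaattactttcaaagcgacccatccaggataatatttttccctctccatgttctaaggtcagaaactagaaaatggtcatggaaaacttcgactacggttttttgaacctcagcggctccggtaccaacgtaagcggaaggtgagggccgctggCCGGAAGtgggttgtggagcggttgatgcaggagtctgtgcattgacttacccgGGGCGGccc
Fastkd3: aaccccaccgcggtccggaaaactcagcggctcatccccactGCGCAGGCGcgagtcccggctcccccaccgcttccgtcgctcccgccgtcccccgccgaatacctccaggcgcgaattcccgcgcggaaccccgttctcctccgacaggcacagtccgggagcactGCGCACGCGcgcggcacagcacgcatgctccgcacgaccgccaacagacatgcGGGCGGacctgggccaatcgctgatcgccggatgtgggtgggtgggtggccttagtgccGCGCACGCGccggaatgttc
The first run of capitals in the Fastkd5 window is an ETS match, which begins 13 bases before the start, and the second is an Sp1 match. The Fastkd3 window held 3 NRF1 matches and 1 Sp1 match. NRF1 is a transcription factor known for nuclear genes of mitochondrial function. RefSeq places the start of Ubox5, on the same strand, 36 bases upstream of that of Fastkd5, so the windows of the pair share 264 bases. Mtrr starts on the opposite strand. From its RefSeq start at 68582169 there are 41 bases to that of Fastkd3, and the windows share 140 bases. RefSeq also lists an Mtrr start at 68582104, farther from that of Fastkd3, whose window (68582055 to 68582354) overlaps the Fastkd3 window too.

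Windows of all 6 genes were searched on both strands. ETS (CCGGAAG) matched in 3 of the 6, namely Fastk, Fastkd5 and Tbrg4, and in 8.86% of all 32851 windows. NRF1 (GCGCANGCG) matched in Fastkd3 alone, against 6.25% of all windows. Sp1 (GGGCGG) matched in 5 of the 6, against 35.7% of all windows. YY1 (AAGATGG, 6.34% of windows) and CRE (TGACGTC, 3.21%) each matched in Tbrg4, and the E-box (CACGTG, 7.15%) matched in Fastkd1. The CRE match of Tbrg4 reads on both strands over the same bases. The Fastkd2 window held 0 matches. The GC content ran from 37.0% for Fastkd1 to 70.7% for Fastkd3, with a median of 52.7% over all windows. The Fastkd1 window rests on a RefSeq start at 69712606, inside the GENCODE gene, which on the minus strand begins at 69713516. Its matches and GC content may thus not be those of the GENCODE start. A match is a description of the letters and not a bound site.

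Recovered reads ranged from 20246743 to 38148494 over 13 libraries, and normalized counts summed to between 27394162 and 29235291 over all 14. Microglial markers (P2ry12, Tmem119, Sall1, Cx3cr1 and Csf1r) summed to between 1032417 and 1232097 normalized counts per IgG library and between 1108790 and 1192250 per anti-CD22 library, with 5 of 5 in the table. Cd3e and Gzma of T and NK cells, Ms4a1 of B cells and Cldn5 of endothelial cells were at 0 in every library. The other listed markers of B cells summed to between 1208 and 1640 normalized counts in IgG libraries and between 1133 and 1463 in anti-CD22 libraries, and those of endothelial cells to between 635 and 1216 and between 885 and 1235. Astrocyte markers summed to between 5876 and 8545 and between 6575 and 8426. Oligodendrocyte markers summed to between 5433 and 6707 and between 4949 and 5660, with 4 of the 4 tested lower on average in anti-CD22 libraries. Neuron markers reached at most 94.02 and 92.9. The 6 neutrophil markers summed to between 3.34 and 53327 in IgG libraries and between 0 and 10131 in anti-CD22 libraries, with 5 lower and 1 higher on average in anti-CD22 libraries. The 6 markers of border-associated macrophages summed to between 90.7 and 1512 and between 243 and 2308, with 5 of the 5 tested higher. The correlation across genes between a library's deviation from the mean of all libraries and transcript length ran from -0.26 to -0.00 in IgG libraries and from -0.27 to 0.33 in anti-CD22 libraries. It was steepest in anti-CD22 replicates 1 to 3, at 0.31, 0.29 and 0.33. For GC content the same correlation was -0.31, -0.40 and -0.36 in these 3 libraries. It ran from -0.02 to 0.26 in the other anti-CD22 libraries and from 0.01 to 0.28 in IgG libraries. The part of this trend and of the marker sums in the results was not tested, and a group difference of a family gene, a neighbour, a list or a gene named from a list that moves by over 1.5 times with the trend removed or without these 3 libraries is given with that value.

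Across the family, Fastkd5 had the highest ratio of anti-CD22 to IgG, which its choice favours, and its interval is not read. The group difference of each of the other 5 genes had a 95% interval that includes 0. By limma with Benjamini-Hochberg adjustment over all genes tested, 0 of the 6 passed an adjusted p of 0.05, where 0.00859% of all genes did. At an unadjusted p under 0.05, 1 of the 6 stood out, Fastkd5, against 12.8% of all genes, and since the family was picked from this contrast nothing is read from that count. Of the 6, 3 had a log2 fold change above 0, where 50.2% of all genes had one, and the median was 0.03 (0.06 without anti-CD22 replicates 1 to 3) beside 0.00 over all genes tested. DESeq2 on the reads of 13 libraries called 32 of 7807 genes (0.41%), Fastkd5 among them, and from this too nothing is read. It did not call Fastk, Fastkd1 or Fastkd2, and gave no adjusted p for Fastkd3 and Tbrg4.

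**Figure D1:**
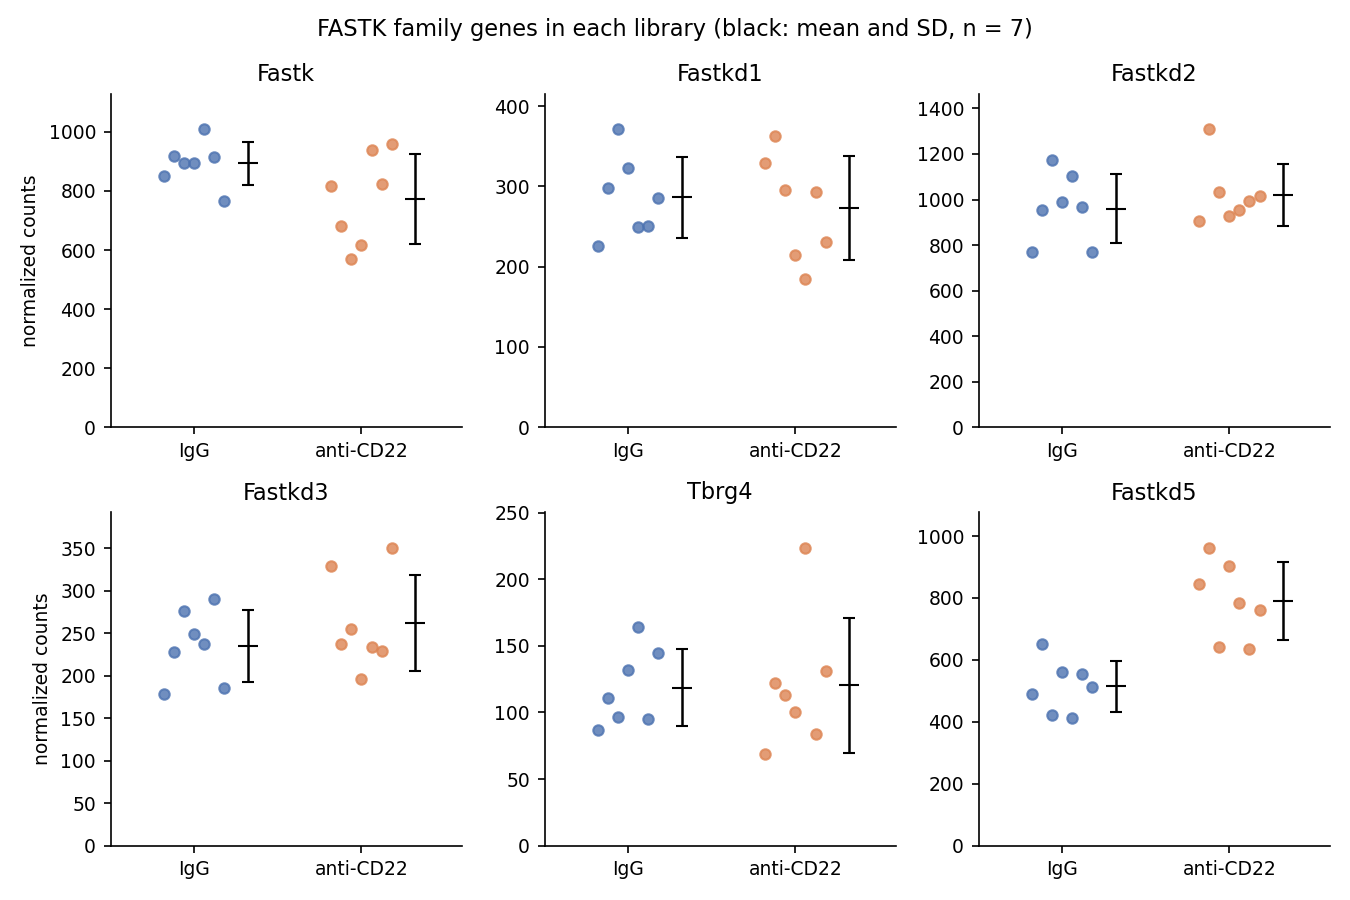
Normalized counts (y axis, from 0, with its own scale in each panel) of the 6 FASTK family genes in each of 7 IgG and 7 anti-CD22 libraries, with the mean and SD in black. Fastkd5 lies between 413 and 651 in IgG libraries and between 634 and 962 in anti-CD22 libraries, and the points of the other genes intermix.

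Fastkd5 (ENSMUSG00000079043) encodes a protein of the RNA granule known for maturing messenger RNAs that are not flanked by transfer RNAs, among them the one for the COX1 subunit of complex IV. In IgG replicates 1 to 7 it stood at 490, 651, 423, 560, 413, 554 and 512 normalized counts. In anti-CD22 replicates 1 to 7 it stood at 845, 962, 641, 904, 785, 634 and 761. Anti-CD22 replicates 3 and 6 lay just under the highest IgG library, replicate 2, and 5 of 7 lay above every IgG library, so the groups met at 1 edge. Means were 515 ± 83.3 (SD, n = 7) and 790 ± 125 (SD, n = 7), and 7 of 7 anti-CD22 values exceeded the IgG median. The log2 fold change was 0.62 (SE 0.12) or 1.54-fold. The choice of Fastkd5 from this contrast favours a large value, so nothing is read from its interval or its place by p. By p Fastkd5 ranked 4 among all genes with a higher mean in anti-CD22, next after Zfp229 (log2 fold change 0.88) and before Rybp (0.60). The log2 fold change was 0.61 with the length and GC trend removed and 0.59 without anti-CD22 replicates 1 to 3. At 3015 bases and 44.3% GC, its transcript ranks at percentile 43.1 of tested genes for length and 22.6 for GC content. Reads behind its values numbered from 371 to 1089 per library, and counting error made up 6.38% of the variance within groups.

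How firmly these values belong to Fastkd5 is limited by the gene that contains it. Ubox5 encodes a U-box protein of the ubiquitin ligase type, and in GENCODE (GRCm38) it spans chromosome 2: 130590002 to 130630038 on the minus strand. Fastkd5 lies wholly inside it on the same strand, at 130613840 to 130630027, with starts 11 bases apart. The genes share their first exon, which is non-coding in both. A Ubox5 transcript annotated for nonsense-mediated decay also carries most of the single coding exon of Fastkd5, which runs from 130613840 to 130616742 with its untranslated ends. As a result, 1966 of the 3015 exon bases of Fastkd5 (65.2%) are also exon bases of Ubox5, and how reads on shared bases were assigned is not given in the sources used here.

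**Figure D2:**
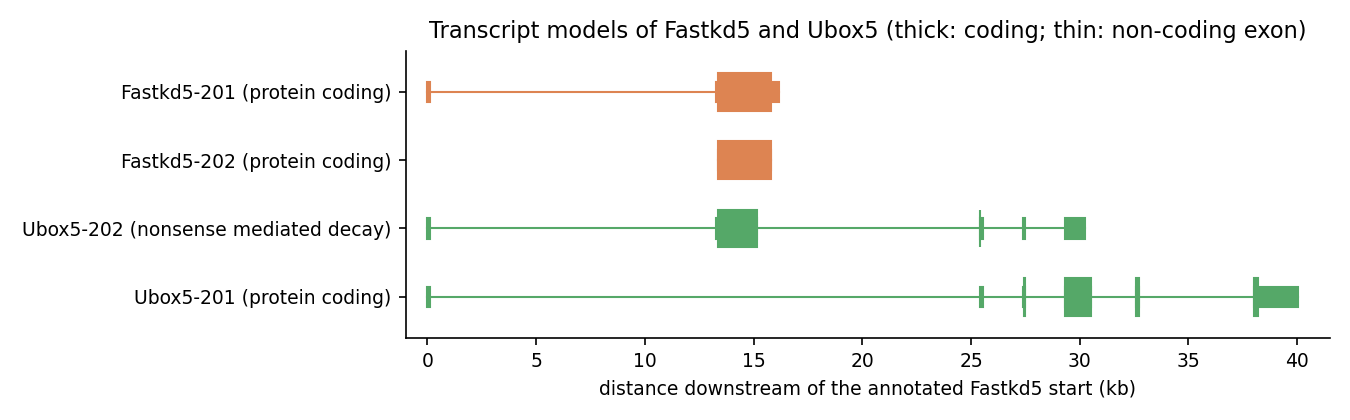
Annotated transcripts of Fastkd5 and Ubox5, drawn to scale against the distance in kb downstream of the annotated start of Fastkd5. Thick boxes are coding and thin boxes non-coding exon. The large Fastkd5 exon recurs, cut short at its far end, in the Ubox5 transcript annotated for nonsense-mediated decay, and is absent from the protein-coding Ubox5 transcript.

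Ubox5 was lower on average in anti-CD22 libraries, with wide spread among IgG libraries. It stood at 357, 417, 526, 767, 822, 622 and 536 normalized counts in IgG replicates 1 to 7 and at 548, 533, 451, 455, 501, 541 and 393 in anti-CD22 replicates 1 to 7. All 7 anti-CD22 libraries lay within the IgG range. Means were 578 ± 171 (SD, n = 7) and 489 ± 57.9 (SD, n = 7), and the log2 fold change was -0.20 (SE 0.16, limma adjusted p = 0.627). A sum of the genes does not depend on how their shared reads were split, provided each such read was counted once, which is not known. That sum, chosen after the data were seen, averaged 1093 ± 166 (SD, n = 7) in IgG libraries and 1279 ± 146 (SD, n = 7) in anti-CD22 libraries, and every anti-CD22 library (7 of 7) exceeded the median of IgG. Its log2 fold change was 0.23 (SE 0.10), beside the 0.62 of Fastkd5 alone. Adding a gene that did not rise lowers the fold change in any case, so nothing is read from that gap. The sum also holds the Fastkd5 values on which the family was picked, so its higher level with anti-CD22 is a description too. Fastkd5 made up 47.8% ± 9.34 of the sum (SD, n = 7) in IgG libraries, from 33.4% to 60.9%, and 61.6% ± 4.44 (SD, n = 7) in anti-CD22 libraries, from 54.0% to 66.5%. Within groups the genes had a Pearson r of -0.15 over 14 libraries, which share their library and size factor. A change in the split of shared reads and a change in Fastkd5 RNA cannot be told apart from these values.

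**Figure D3:**
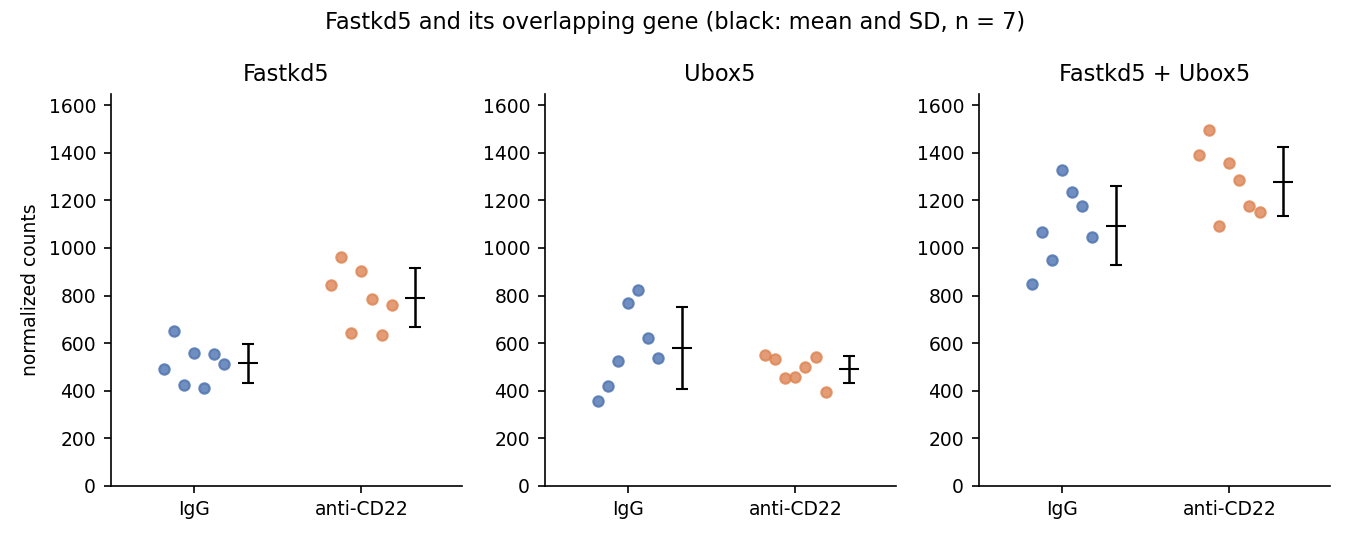
Normalized counts (y axis, from 0) of Fastkd5, of Ubox5 and of their sum in each of 7 IgG and 7 anti-CD22 libraries, with the mean and SD in black. The sum spans 847 to 1326 in IgG libraries and 1092 to 1495 in anti-CD22 libraries, which overlap over most of their range.

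Fastkd2 (ENSMUSG00000025962; chromosome 1: 63730614 to 63754655) encodes a granule protein that binds the large mitochondrial ribosomal RNA and takes part in ribosome assembly. It was the most abundant member by normalized counts in both groups. IgG libraries ran from 768 through a median of 967 to 1176 normalized counts, and anti-CD22 libraries from 906 through 992 to 1309. The groups overlapped, with 1 anti-CD22 library, replicate 2, above every IgG library. Means were 960 ± 153 (SD, n = 7) and 1019 ± 136 (SD, n = 7). The log2 fold change was 0.09 (SE 0.11, 95% interval -0.14 to 0.32, limma adjusted p = 0.747). Removal of the length and GC trend brought it to -0.00, and leaving out anti-CD22 replicates 1 to 3 to 0.03. In GENCODE its exons share 0 bases with another gene, and the genes on either side, Mdh1b and 4933402D24Rik, reached at most 2.22 and 6.60 normalized counts.

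Fastk (ENSMUSG00000028959; chromosome 5: 24438440 to 24445287), the founding member, has a mitochondrial form that keeps the messenger RNA of the complex I subunit ND6 stable. Its values were 851, 918, 896, 896, 1009, 917 and 768 normalized counts in IgG replicates 1 to 7 and 815, 680, 571, 618, 939, 822 and 958 in anti-CD22 replicates 1 to 7. Anti-CD22 replicates 2, 3 and 4 lay below every IgG library, while the other anti-CD22 libraries lay within the IgG range. Means were 893 ± 73.2 (SD, n = 7) and 772 ± 152 (SD, n = 7), 1.17-fold lower with anti-CD22. The log2 fold change of -0.23 (SE 0.12, 95% interval -0.47 to 0.01) did not pass the limma threshold (adjusted p = 0.415). It was -0.17 with the length and GC trend removed and -0.12 without anti-CD22 replicates 1 to 3, of which 2 are among the low libraries. Fastk shares 1141 of its 4372 exon bases (26.1%) with Slc4a2, an anion exchanger gene on the opposite strand, and the library kit does not keep the strand. Slc4a2 itself stood at 1031 ± 177 and 1038 ± 125 (SD, n = 7 each; log2 fold change 0.02, limma adjusted p = 0.956), with log2 fold changes of 0.06 after removal of the trend and 0.11 without those 3 libraries. The sum of Fastk and Slc4a2, also chosen after the data were seen, differed by -0.09 on the log2 scale (SE 0.09, limma adjusted p = 0.676).

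Fastkd1 (ENSMUSG00000027086; chromosome 2: 69686815 to 69713516) is known to affect the level of the messenger RNA of ND3, another complex I subunit. IgG libraries ran from 226 through a median of 286 to 371 normalized counts, and anti-CD22 libraries from 185 through 293 to 363. Of the anti-CD22 libraries, 2 lay below every IgG library and 0 above, and the medians were close. Means were 286 ± 50.01 (SD, n = 7) and 273 ± 64.7 (SD, n = 7), and the log2 fold change was -0.09 (SE 0.17, limma adjusted p = 0.858). The 95% interval of -0.43 to 0.26 leaves room for a change of either sign. Without anti-CD22 replicates 1 to 3 the log2 fold change was -0.31, and the remaining 4 anti-CD22 libraries include both that lay below the IgG range. This value did not pass the threshold either.

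Fastkd3 (ENSMUSG00000021532; chromosome 13: 68582234 to 68592338) encodes a protein needed for normal mitochondrial respiration. IgG libraries ran from 178 through a median of 237 to 290 normalized counts, and anti-CD22 libraries from 196 through 238 to 350. Anti-CD22 replicates 1 and 7 lay above every IgG library at 329 and 350, and the medians were nearly equal. Means were 235 ± 42.3 (SD, n = 7) and 262 ± 56.4 (SD, n = 7), with a log2 fold change of 0.15 (SE 0.16, 95% interval -0.19 to 0.49, limma adjusted p = 0.721). It was 0.07 after removal of the length and GC trend and 0.09 without anti-CD22 replicates 1 to 3. Mtrr, a reductase that keeps methionine synthase active, lies 84 bases away in GENCODE, head to head with Fastkd3. It stood at 834 ± 141 and 755 ± 119 (SD, n = 7 each), and its log2 fold change was -0.14 (SE 0.12, limma adjusted p = 0.635), or -0.09 without anti-CD22 replicates 1 to 3.

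Tbrg4 (ENSMUSG00000000384; chromosome 11: 6615598 to 6626067) encodes FASTKD4, which is known to stabilise several mitochondrial messenger RNAs. It had the lowest normalized counts of the family. IgG libraries ran from 87.1 through a median of 111 to 164 normalized counts, and anti-CD22 libraries from 68.6 through 113 to 224. Anti-CD22 libraries reached past the IgG range on both sides, with replicate 5 highest at 224 and replicates 1 and 6 lowest at 68.6 and 83.6. Means were 119 ± 28.8 (SD, n = 7) and 120 ± 50.4 (SD, n = 7), and the log2 fold change was -0.04 (SE 0.24, limma adjusted p = 0.969). Its interval was the widest of the family, from -0.55 to 0.47. Its sign turned under other settings, to 0.07 with the length and GC trend removed and 0.11 without anti-CD22 replicates 1 to 3. Tbrg4 shares 127 exon bases (3.44%) with the small nucleolar RNA gene Snora5c, which reached at most 1.11 normalized counts.

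**Figure D4:**
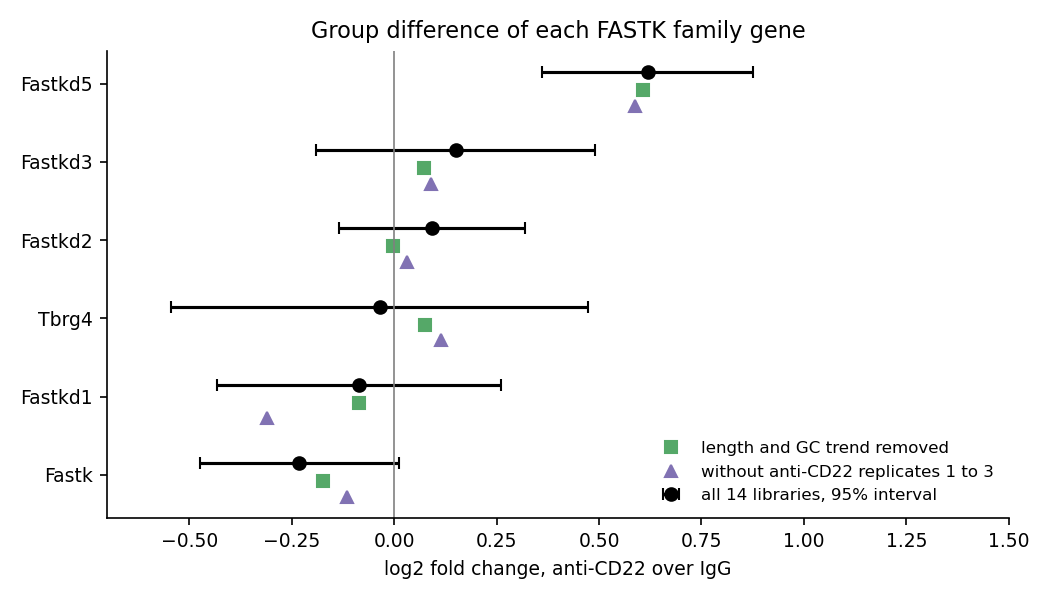
Log2 fold change of each family gene (x axis, anti-CD22 over IgG), with the 95% interval for all 14 libraries in black, the value with the length and GC trend removed as green squares and the value without anti-CD22 replicates 1 to 3 as purple triangles. Fastkd5 lies near 0.6 under all 3, and since the family was picked on it, nothing is read from its interval. The intervals of the other 5 genes include 0.

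The annotation held 14 genes that overlap a family gene or lie within 5 kb of one, of which 9 were in the table and 5 were tested. Of these 5 neighbours, 0 passed the limma threshold. Besides Ubox5, Slc4a2 and Mtrr they were Tmub1, a ubiquitin-like membrane protein gene beside Fastk, and Lzts3, a gene upstream of Fastkd5 on the same strand. Tmub1 averaged 502 ± 77.8 and 429 ± 113 normalized counts (SD, n = 7 each). Its log2 fold change of -0.25 (SE 0.15) had a limma adjusted p of 0.499 and became -0.10 with the trend removed and -0.04 without anti-CD22 replicates 1 to 3. Lzts3 averaged 48.1 ± 24.8 and 49.2 ± 23.2 (SD, n = 7 each), with a value of 0 in IgG replicate 1, and its log2 fold change was 0.47 with an SE of 0.76, or 0.28 without those 3 libraries.

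Levels of different genes were compared per kb of the longest annotated transcript. In IgG libraries Fastk came first with 245 ± 20.1 normalized counts per kb (SD, n = 7), followed by Fastkd2 with 214 ± 34.2 and Fastkd5 with 171 ± 27.6. Fastkd1 came next with 89.4 ± 15.6, and Tbrg4 with 50.5 ± 12.3 and Fastkd3 with 45.7 ± 8.23 came last. Ranges of neighbours in this order overlapped, except between Fastkd5 and Fastkd1 and between Fastkd1 and Tbrg4. By the same length, Fastkd5 came first in anti-CD22 libraries with 262 ± 41.3, before Fastkd2 with 227 ± 30.3 and Fastk with 212 ± 41.9 (SD, n = 7 each), and the ranges of these 3 overlapped. Fastkd1 with 85.3, Tbrg4 with 51.3 and Fastkd3 with 50.9 normalized counts per kb kept their places by mean. In single anti-CD22 libraries, however, Fastkd2 exceeded Fastk in 3 of 7 and Tbrg4 exceeded Fastkd3 in 3 of 7. Both ends of the order depend on the length used. Per kb of the mean length of a gene's annotated transcripts, Fastkd5 stood at 291 in anti-CD22 libraries, behind Fastk at 587 and Fastkd2 at 560, and its range did not overlap that of Fastkd2. By that length Fastk and Fastkd2 also led in IgG libraries, at 680 and 527 against 189 for Fastkd5. Per kb of the longest protein-coding transcript, chosen after the data were seen, Fastkd3 stood at 96.9 in IgG libraries, above the 50.5 of Tbrg4.

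The 6 genes together summed to 3008 ± 262 normalized counts (SD, n = 7) per IgG library and 3236 ± 278 (SD, n = 7) per anti-CD22 library. Without Fastkd5 the sums were 2493 ± 274 and 2446 ± 232 (SD, n = 7 each). Fastkd5 made up 17.2% ± 3.01 of the family sum in IgG libraries (SD, n = 7), with a highest value of 20.6%, and 24.4% ± 3.35 in anti-CD22 libraries (SD, n = 7), from 20.8% to 30.6%. The groups did not overlap, which the choice of Fastkd5 favours.

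Ratios of members within a library do not depend on its size factor, but they can carry its length and GC trend. The log2 ratio of Fastk to Fastkd5 averaged 0.81 ± 0.28 (SD, n = 7) in IgG libraries and -0.04 ± 0.38 (SD, n = 7) in anti-CD22 libraries, and all 7 anti-CD22 ratios lay below every IgG ratio. This is a description, as are the other pairs with Fastkd5, which were less apart. For the ratios of Fastkd1 and of Fastkd2 to Fastkd5, 5 of 7 anti-CD22 libraries lay below every IgG library, and for Fastkd3 to Fastkd5 3 of 7. For Fastkd5 to Tbrg4, 4 of 7 lay above every IgG library. Of the 10 pairs without Fastkd5, 0 passed a two-sided exact permutation test over all 3432 assignments of libraries to groups after Benjamini-Hochberg adjustment over the 10. The lowest p was that of Fastk to Fastkd3, whose log2 ratio averaged 1.94 ± 0.22 in IgG libraries and 1.56 ± 0.29 in anti-CD22 libraries (SD, n = 7 each). The difference of -0.38 (95% interval -0.69 to -0.08) had an exact permutation p of 0.0169, or 0.169 after adjustment, and 5 of 7 anti-CD22 ratios lay below every IgG ratio. For Fastk to Fastkd2 the difference was -0.32 (95% interval -0.68 to 0.03), with an exact permutation p of 0.0664, or 0.332 after adjustment. With the trend removed, the log2 fold changes of the single genes were -0.17 for Fastk, 0.07 for Fastkd3 and -0.00 for Fastkd2. Without anti-CD22 replicates 1 to 3 they were -0.12, 0.09 and 0.03, so both ratio differences were smaller under either setting.

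Whether the family genes vary together was asked within groups. Over 14 libraries with group means removed, the 15 pairs had Pearson r from -0.43 to 0.50, 8 of them positive, and 0 passed a permutation test with 100000 resamples after adjustment over the 15. The highest was that of Fastkd1 and Fastkd2 (r = 0.50, rho = 0.54, permutation p = 0.0639 and 0.0507, adjusted p = 0.645 and 0.688). It was 0.36 without the 2 libraries farthest from the median of Fastkd1 and 0.15 after removal of the length and GC trend. Fastk and Fastkd3 came next (r = 0.50, rho = 0.46, permutation p = 0.0972 and 0.138, adjusted p = 0.645 and 0.688), with r = 0.48 without the 2 libraries farthest from the median of Fastk and r = 0.67, not tested, after removal of the trend. Fastkd5 had r from -0.10 to 0.03 with the other 5 genes.

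Genes whose values followed a member most closely were ranked by Pearson r over the 14 libraries with group means removed, among 9427 genes with a mean of at least 100 normalized counts. Since they are the best of so many, the values are descriptions. For Fastkd5 they were the interferon receptor subunit gene Ifnar1 (r = 0.83, rho = 0.78), Svip (r = 0.79, rho = 0.84), the transcriptional repressor gene Spen (r = 0.75, rho = 0.82), the mitochondrial pseudouridine synthase gene Trub2 (r = 0.75, rho = 0.70) and the kinase gene Chuk (r = 0.75, rho = 0.83). The log2 fold changes of these 5 between the groups ran from -0.15 for Trub2 to 0.23 for Spen, with limma adjusted p from 0.574 for Ifnar1 to 0.987 for Svip. Fastkd1 was followed by Brms1l (r = 0.94) and Epm2aip1 (r = 0.89), Fastkd2 by Actr6 and Parp9 (r = 0.88 each), Fastkd3 by Ubac2 (r = 0.85) and Rnf122 (r = 0.83), and Tbrg4 by Nupl2 (r = 0.84) and Ints1 (r = 0.83). For Fastk they were the tRNA thiolation gene Ctu1 (r = 0.84) and Plgrkt (r = 0.83), and removal of the length and GC trend brought Plgrkt to 0.39 and Ubac2 to 0.49.

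Other genes of mitochondrial gene expression were given as 6 lists of 85 genes, of which 84 were in the table and 83 were tested. By limma 0 of the 83 passed an adjusted p of 0.05, 43 were higher and 40 lower, and 6 (7.23%) had an unadjusted p under 0.05 beside the 12.8% of all genes. With a list of complex IV genes added, 112 were tested and 0 passed, with 47 higher, 65 lower and 11 (9.82%) at an unadjusted p under 0.05. List medians below are followed in brackets by their values after removal of the trend and without anti-CD22 replicates 1 to 3. The 17 tested genes of mitochondrial transcription and DNA maintenance split into 10 higher and 7 lower, and their median was 0.02 on the log2 scale (0.03 and 0.00). Among them the mitochondrial RNA polymerase gene Polrmt averaged 991 ± 237 normalized counts with IgG and 709 ± 216 with anti-CD22 (SD, n = 7 each; log2 fold change -0.50, SE 0.18, adjusted p = 0.289). Polrmt lay below the IgG median in 6 of 7 anti-CD22 libraries. Tfam, the packaging and transcription factor of mitochondrial DNA, averaged 775 ± 99.4 and 928 ± 105 (SD, n = 7 each; log2 fold change 0.26, SE 0.10, adjusted p = 0.310), above the IgG median in 7 of 7.

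The 5 genes of transfer RNA end processing, the canonical route beside which FASTKD5 works, split into 3 higher and 2 lower with a median of 0.04 (0.02 and 0.09). For Trmt10c, a subunit of the enzyme that cuts their 5′ ends, the log2 fold change was 0.24 (SE 0.12, adjusted p = 0.408), or 0.14 without those 3 libraries. For the catalytic subunit Prorp, listed as 1110008L16Rik, it was -0.15 (adjusted p = 0.716), or -0.24 without them. Of the 12 genes of RNA stability, polyadenylation and decay, 8 were higher and 4 lower, with a median of 0.04 (-0.05 and -0.00). Lrpprc, which keeps mitochondrial messenger RNAs stable, stood at 2649 ± 398 and 2884 ± 503 (SD, n = 7 each). Its log2 fold change of 0.12 became 0.06 after removal of the trend and -0.01 without those 3 libraries. Supv3l1, the helicase of the degrading complex, stood at 551 ± 89.8 and 464 ± 63.9 (log2 fold change -0.25, adjusted p = 0.412). The 16 genes of the RNA granule and ribosome assembly, the setting of FASTKD2 and FASTKD5, split into 8 higher and 8 lower with a median of -0.02 (0.03 and 0.00). The log2 fold change of Rpusd4, a granule pseudouridine synthase, was 0.20 (adjusted p = 0.468), and that of the methyltransferase Nsun4 was -0.14 (adjusted p = 0.506).

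Of the 20 genes that modify ribosomal and transfer RNA, 8 were higher and 12 lower, with a median of -0.06 (0.00 and 0.06). After removal of the trend 11 of the 20 were higher. The list held the lowest adjusted p of all 7 lists, that of the demethylase gene Alkbh1, which averaged 270 ± 84.0 normalized counts with IgG and 402 ± 68.6 with anti-CD22 (SD, n = 7 each; log2 fold change 0.61, SE 0.18, adjusted p = 0.229). Alkbh1 exceeded the IgG median in 7 of 7 anti-CD22 libraries, and 3 lay above every IgG library. Gtpbp3, which takes part in transfer RNA modification, lay below the IgG median in 7 of 7 (log2 fold change -0.32, adjusted p = 0.376). The 14 translation factor genes split into 7 and 7 with a median of -0.00 (0.01 and 0.03). Among them the release factor gene Mtrf1l averaged 213 ± 34.2 and 281 ± 30.9 (SD, n = 7 each; log2 fold change 0.41, SE 0.14, adjusted p = 0.284), with 6 of 7 anti-CD22 libraries above every IgG library.

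Complex IV holds the COX1 subunit whose messenger RNA FASTKD5 is known to mature, and its nuclear subunit and assembly genes were mostly lower in anti-CD22 libraries. Of 29 tested, 4 were higher and 25 lower. The median log2 fold change was -0.16 beside 0.00 over all genes tested, and 0 passed the threshold. Cox4i1 averaged 4755 ± 348 normalized counts with IgG and 3991 ± 542 with anti-CD22 (SD, n = 7 each; log2 fold change -0.26, SE 0.08, limma adjusted p = 0.237), and Cox6a1 1820 ± 298 and 1469 ± 274 (SD, n = 7 each; log2 fold change -0.32, SE 0.12, limma adjusted p = 0.309). Removal of the length and GC trend took the median to -0.08, put 9 of the 29 higher, and left Cox4i1 and Cox6a1 at -0.10 and -0.11. Without anti-CD22 replicates 1 to 3 the median was -0.08 and these genes stood at -0.11 and -0.13. The assembly factor gene Coa5 went the other way, from 2177 ± 219 to 2475 ± 264 normalized counts (SD, n = 7 each; log2 fold change 0.18, SE 0.08, limma adjusted p = 0.349). Without those 3 libraries its log2 fold change was 0.11.

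**Figure D5:**
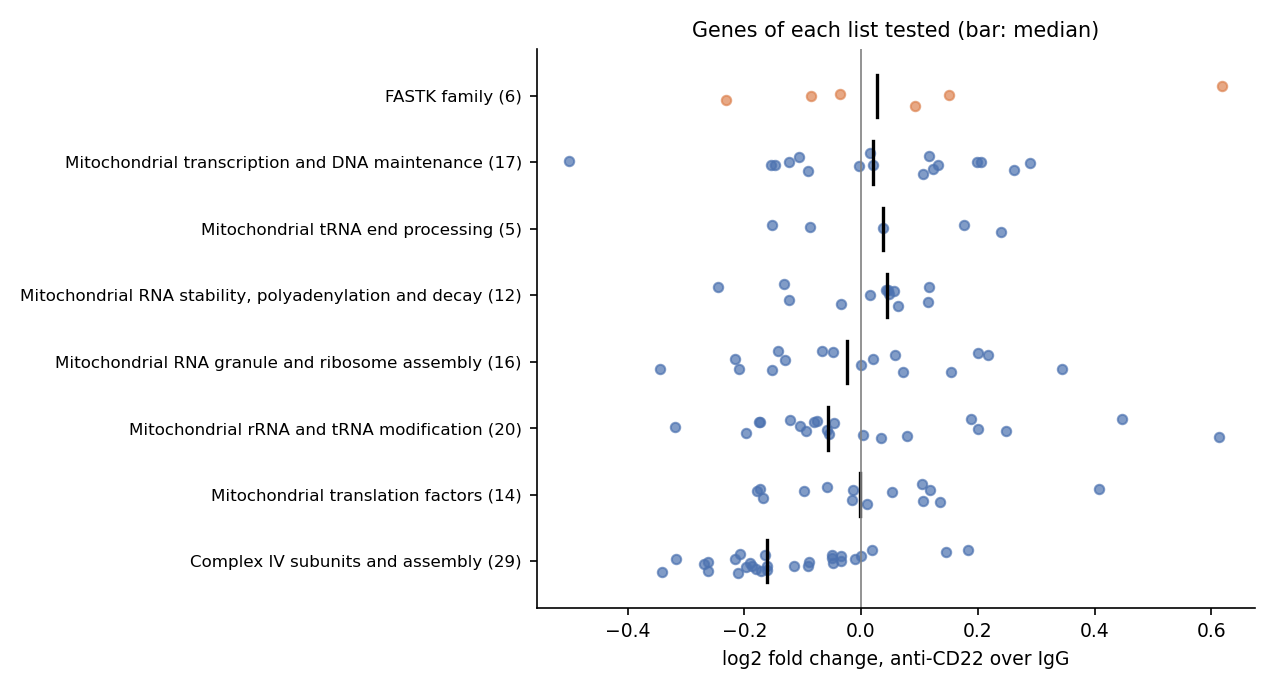
Log2 fold change (x axis, anti-CD22 over IgG) of every tested gene of the FASTK family and of the 7 lists of mitochondrial gene expression and complex IV, with the number tested in brackets and the median as a bar. Fastkd5 is the rightmost point of the family, and the complex IV points lie mostly left of 0, with a median of -0.16.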

How the data were processed

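RNA sequencing measured gene expression in 7 IgG and 7 anti-CD22 libraries, grouped by sample title. Per the submitters' processing notes, the 100 bp paired reads went through bcl2fastq for demultiplexing, STAR for alignment (build mm10), SummarizedExperiment for the count matrix and DESeq2 for the analysis. Not given in the sources used here are tool versions, the gene annotation and the handling of reads on overlapping genes. The values the authors deposited are a signal, namely gene counts divided by 1 size factor per library, called normalized counts here. Of 24421 entries, 27 with names turned into dates were left out (at most 0.149% of a library's counts), and 0 columns were without a sample.

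The family and the lists were chosen with earlier results of these data known. Log2 values, taken after adding 1 to the normalized counts, were tested with limma, with a mean-variance trend, Benjamini-Hochberg adjustment and a threshold of 0.05, over 11646 genes with a mean of at least 10. A fold change is on that scale, which understates changes of low genes. Named genes are the 6 members, their neighbours within 5 kb, the genes most like each member, and in each list the genes with the smallest p in each direction, of which not all are printed. Removing the length and GC trend per library used natural splines on GENCODE vM21 transcripts (on GRCm38, which is mm10), the source of the coordinates as well. Promoter windows came from RefSeq. Some cell type markers are not reported here. Whole reads were recovered for 13 libraries by dividing by each library's step, within a tolerance of 0.1 reads. Anti-CD22 replicate 3 has a step of 1.01, too close to 1 to claim whole reads, and stayed out of the edgeR and DESeq2 alternatives. Reads carry no molecular identifiers and are not independent molecules. Other alternatives were pseudocounts, filters, scalings, variance models, weights, a replicate block and leaving out each library, and the code was tested on simulated data. Python 3.11.15 (pandas 2.3.3, scipy 1.17.1, matplotlib 3.10.9) and R 4.3.3 were used, the latter with DESeq2 1.42.0, limma 3.58.1 and edgeR 4.0.16.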

Additional observations from a re-analysis of the deposited data

Results flagged for a closer look

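Of 22 groups of 7 libraries examined for the family genes and their tested neighbours, 3 held a library far from the others, where chance gives about 1 in 20 groups. Fastkd2 stood at 1309 normalized counts in anti-CD22 replicate 2, and the next library of that group at 1031. Tbrg4 stood at 224 normalized counts in anti-CD22 replicate 5, and the next library at 131. Lzts3, the neighbour upstream of Fastkd5, was at 0 in IgG replicate 1, and the next library of that group stood at 43.0 normalized counts.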

How the results depend on the processing

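The count of genes past the limma threshold, 1 over all genes, is not a count of family genes. It was 0 with no mean-variance trend, 0 with the length and GC trend removed, 0 without anti-CD22 replicates 1 to 3 together and 0 by edgeR (1027 at an unadjusted p under 0.05). It was 8 with array weights (4 higher, 4 lower) and 32 by DESeq2 (14 higher, 18 lower), and from 0 to 43 on leaving out each library, with 43 without anti-CD22 replicate 7. Same-numbered libraries did not stand out as pairs: they had correlations from -0.15 to 0.16, 2 of 7 above 0.1, and 0 of the 7 anti-CD22 libraries correlated best with their own number. Such values cannot exclude a weak pairing. With a replicate block the count was 2 (0 higher, 2 lower), and the block changed the call of 0 family genes.

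Fastkd5 kept its direction in every setting run, with a log2 fold change from 0.57 to 0.68 on leaving out each library, and 0.23 summed with Ubox5. Its choice from these same libraries favours a steady direction, so nothing is read from that. The other 5 members passed the threshold in 0 of the settings run. Ranges on leaving out each library were -0.29 to -0.16 for Fastk, -0.16 to 0.00 for Fastkd1, 0.03 to 0.14 for Fastkd2, 0.08 to 0.21 for Fastkd3 and -0.20 to 0.08 for Tbrg4. Directions turned where values lay near 0, and the cause was not tested. Without anti-CD22 replicate 5, Fastkd1 turned to 0.0017. With the length and GC trend removed, Fastkd2 turned to -0.0032 and Tbrg4 to 0.075, with or without the replicate block. Tbrg4 also turned to 0.047 and 0.018 on leaving out IgG replicates 5 and 7 in turn, to 0.083 and 0.036 on leaving out anti-CD22 replicates 1 and 6 in turn, to 0.11 without anti-CD22 replicates 1 to 3, to 0.040 by edgeR and to 0.037 by DESeq2. Depth was lowest for Tbrg4, with 75 to 241 reads per library.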
